A study of Mus musculus with 16 samples.

Results

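The enzymes that build pyrimidine nucleotides and turn ribonucleotides into the deoxynucleotides of DNA were followed in bone marrow CFU-E cells of the mouse. The 10 enzymes were chosen by name as Cad, Dhodh, Umps, Ctps, Ctps2, Rrm1, Rrm2, Rrm2b, Dctd and Dut, and all 10 were found among the 15386 genes of the RNA-seq table and among the 13490 genes of the m6A table. CFU-E cells are committed erythroid progenitors that divide rapidly and come just before proerythroblasts. The RNA-seq compared 3 libraries of control CFU-E cells with 3 libraries of Mettl3-deficient CFU-E cells that carry little Kit, the receptor for stem cell factor. Mettl3 is the catalytic subunit of the methyltransferase that places m6A on mRNA. In the deficient mice (Mettl3 fl/fl, EpoR Cre/–) a floxed Mettl3 gene was deleted by EpoR-tdTomato-Cre, which recombines in erythroid cells and also in the macrophages of erythroblastic islands. The authors also reported a partial loss of Mettl3 mRNA in hematopoietic stem and progenitor cells of these mice. The mice were adults of both sexes on a C57BL/6 background. The genotype of the control mice is not given in the sources used here, and neither is the number of mice behind a library, so that p-values measure the spread between these libraries. Cells of both groups were sorted by the same surface markers of CFU-E cells. The deficient libraries were further gated for low Kit, and Kit-low control cells were not analysed here, so that genotype and Kit gate cannot be told apart. The m6A experiment held 2 input libraries and 2 libraries from immunoprecipitation with an m6A antibody (IP), all from control CFU-E cells. Methylation in Mettl3-deficient cells was not analysed here.

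De novo pyrimidine synthesis starts with the multifunctional enzyme CAD, passes through DHODH on the inner mitochondrial membrane and ends at UMP with UMPS, and CTP synthase then makes CTP from UTP. Ribonucleotide reductase, built from a large subunit (RRM1) and a small subunit (RRM2 or its paralog RRM2B), reduces ribonucleoside diphosphates to the deoxy form and limits the supply of DNA precursors. DCTD deaminates dCMP to dUMP and DUT hydrolyses dUTP to dUMP, the substrate of thymidylate synthase, so that both feed the making of dTMP and DUT also keeps uracil out of DNA. CFU-E cells are among the most actively cycling cells of the bone marrow and draw heavily on this supply.

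Estimated counts summed to between 17429262 and 21329242 in the RNA-seq libraries and to between 19421059 and 37142742 in the m6A libraries. Levels of single genes are given as CPM, counts scaled to a common library size after TMM normalization. Mettl3 itself was measured at 115, 123 and 130 CPM in control cells. The libraries labelled Mettl3-deficient had 117, 127 and 108 CPM, so that whole-gene counts did not show the deletion. Kit mRNA was at 544, 629 and 622 CPM in control and at 68.5, 53.1 and 44.0 CPM in the Kit-low libraries. The 5 erythroid progenitor markers (Gata1, Klf1, Epor, Tfrc and Kit) summed to 3015 to 3112 CPM in control and to 3007 to 3143 CPM in the Kit-low libraries. Of these 5, 2 were called higher and 1 lower, so that the near-equal sums do not show equal members. From control to Kit-low, mean Klf1 went from 958 to 1444 CPM and mean Epor from 225 to 340 CPM, while Kit fell. Gata1 (594 and 626 CPM) and Tfrc (678 and 619 CPM) differed less. The 4 late erythroid markers Hba-a1, Hbb-bt, Slc4a1 and Alas2 summed to 35.6 to 44.4 CPM in control and to 1206 to 1933 CPM in the Kit-low libraries, where all 4 were called higher. Of other cell types, 6 macrophage markers summed to 20.6 to 24.3 CPM in control and to 12.4 to 14.3 CPM in the Kit-low libraries. Mean Cd163 was at 13.5 CPM in control and 6.36 CPM in Kit-low, and Vcam1 at 2.96 and 1.43 CPM. Cd68 (4.27 and 4.66 CPM) and Csf1r (0.72 and 0.90 CPM) lay slightly higher in Kit-low. Siglec1 (0.32 and 0.05 CPM) and Adgre1 (0.11 and 0 CPM) were near 0 in both groups. The 5 granulocyte markers summed to 19.9 to 29.0 CPM in control and to 3.88 to 13.9 CPM in Kit-low. In each of these lists 1 marker was called lower and none higher. The 3 megakaryocyte markers summed to 4.31 to 6.63 CPM in control and to 6.73 to 16.0 CPM in Kit-low, where 2 were called higher and none lower. Mean Itga2b was at 2.68 CPM in control and 8.24 CPM in Kit-low, and Gp9 at 1.42 and 3.52 CPM. Pf4 lay on the other side, at 1.12 and 0.22 CPM. Markers of lymphocytes summed to at most 3.26 CPM. The part of these markers in the differences described here was not tested. In bulk libraries a smaller share of cells that use a gene and less of its mRNA per cell cannot be told apart.

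To set the enzymes beside each other, levels per transcript length were computed as TPM, in which counts are divided by length and scaled to a common total, from the counts and the longest annotated coding transcript of each gene. In control CFU-E cells Rrm1 was the most abundant, at 834 ± 34.4 TPM (SD, n = 3), followed by Dut at 636 ± 19.8 TPM. Umps (201 ± 23.6 TPM), Ctps (147 ± 10.5 TPM) and Dhodh (126 ± 10.9 TPM) came next. Rrm2, the partner of Rrm1 in ribonucleotide reductase, was at 85.1 ± 11.1 TPM, above Cad at 66.1 ± 2.16 TPM. The lowest were Ctps2 at 45.5 ± 1.51 TPM, Dctd at 31.5 ± 1.55 TPM and Rrm2b at 3.02 ± 1.01 TPM. No 2 neighbours in this order had overlapping libraries. In the Kit-low Mettl3-deficient libraries Rrm2 stood 4th in place of 6th, with 231 ± 36.8 TPM, behind Rrm1 at 1034 ± 38.8 TPM, Dut at 457 ± 34.6 TPM and Umps at 307 ± 8.02 TPM. There Ctps and Dhodh overlapped, as did Ctps2 and Dctd.

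The comparison of Kit-low Mettl3-deficient with control CFU-E cells asked which of these enzymes differ in mRNA level. The groups differ in both genotype and Kit gate. A gene was called when its fold change was at least 1.5 and its p-value under the quasi-likelihood test of edgeR, after Benjamini-Hochberg adjustment over all 11979 genes tested, was under 0.05. Rrm2 rose, and Ctps2 and Dctd fell. These calls, 1 higher and 2 lower among 10 genes tested, stood beside a background of 12.1% of all genes called higher and 9.83% called lower, or 22.0% in either direction. Without the threshold on the fold, 2 of the 10 had an adjusted p under 0.05 on the higher side (17.6% of all genes) and 5 on the lower side (16.9% of all genes). The 3 and 3 libraries did not overlap for 8 of the 10 enzymes, 3 higher and 5 lower, where 47.5% of all genes did not overlap, 23.5% higher and 24.0% lower. The median log2 fold change was -0.31 over the 10 enzymes and 0.01 over all genes.

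**Figure D1:**
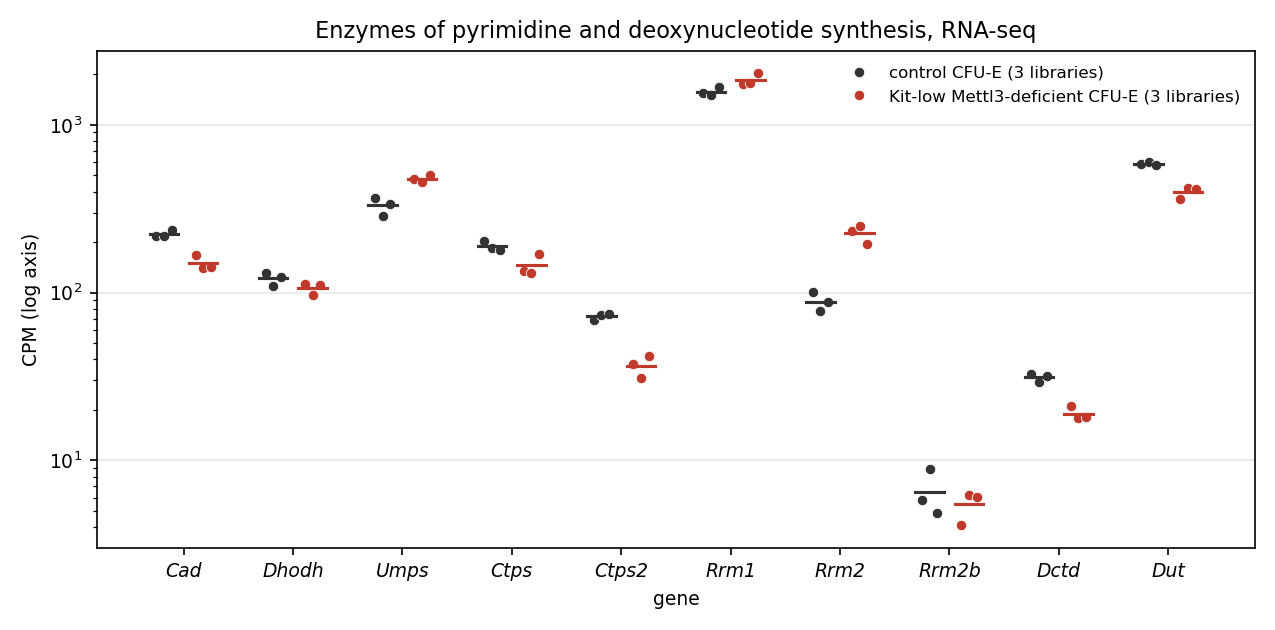
CPM (log axis) of the 10 enzymes in each of the 3 control libraries (grey) and the 3 Kit-low Mettl3-deficient libraries (red), with the group mean as a bar. Rrm2 was at 77.2 to 100.2 CPM in control and at 196 to 249 CPM in the Kit-low libraries, while the points of Dhodh and of Rrm2b overlap between the groups.

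The genes of ribonucleotide reductase had unequal fold changes. Rrm2 (chr12:24708241-24714146, plus strand) was at 100.2, 77.2 and 87.5 CPM in control and at 233, 249 and 196 CPM in the Kit-low libraries. All 3 Kit-low values lay above all 3 control values, and the fitted rise was 2.56-fold (log2 fold change 1.35, SE 0.12, edgeR adjusted p = 3.13e-05), which is higher than for 95.1% of all genes tested. RRM2 is the subunit whose amount follows the cell cycle and carries the tyrosyl radical of the enzyme. Rrm1 (chr7:102441695-102469771, plus strand), which encodes the large catalytic subunit, was at 1545, 1513 and 1677 CPM in control and at 1742, 1786 and 2027 CPM in the Kit-low libraries. These values did not overlap either, but the difference was small and missed the threshold (log2 fold change 0.23, SE 0.08, 95% interval 0.05 to 0.41, edgeR adjusted p = 0.0525). Rrm2b (chr15:37923952-37961318, minus strand), the small subunit known as a p53 target used outside S phase and for mitochondrial DNA, was scarce, at 5.79, 8.86 and 4.87 CPM in control and 4.10, 6.21 and 6.05 CPM in the Kit-low libraries. The groups overlapped, and the interval of its log2 fold change was wide (-0.94 to 0.43, edgeR adjusted p = 0.573). Of its exonic bases, 8.04% are shared with Gm49085 on the opposite strand, and whether strand was used in the counting is not given in the sources used here.

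Within a library, the log2 difference between Rrm2 and Rrm1 can be followed without reference to other genes. Because the 2 transcripts differ in length, only the change of this difference is read. Rrm1 exceeded Rrm2 by 3.95, 4.29 and 4.26 on the log2 CPM scale in the control libraries and by 2.90, 2.84 and 3.37 in the Kit-low libraries. The gap was smaller by 1.13 on the log2 scale (log2 difference of -1.13), with every Kit-low library below every control library. Between the small subunits, Rrm2 minus Rrm2b was 3.78 ± 0.58 in control and 5.36 ± 0.40 in the Kit-low libraries (SD, n = 3 in each group, exact 2-sided permutation test p = 0.1). For each of the 3 pairs of enzymes compared in this way, CTP synthases included, the exact p was 0.1, which is the smallest that 3 against 3 libraries can give, and 0.1 after adjustment over the 3 pairs.

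The promoters of Rrm1 and Rrm2 are shown because these genes encode the partner subunits of 1 enzyme while their fold changes differed. Each line gives the 250 bases before the annotated start from RefSeq (GRCm38.p6), 5′ to 3′ on the plus strand, with matches to CCAAT, bound by NF-Y, and to TCCCGC, the core of a site bound by E2F factors, in capitals where found on either strand.
Rrm1, chr7:102441445-102441694: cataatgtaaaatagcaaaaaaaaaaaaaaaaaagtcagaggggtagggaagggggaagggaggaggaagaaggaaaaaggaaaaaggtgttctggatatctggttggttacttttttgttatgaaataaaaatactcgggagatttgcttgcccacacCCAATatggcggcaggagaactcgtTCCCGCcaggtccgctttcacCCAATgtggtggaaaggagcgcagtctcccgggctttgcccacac
Rrm2, chr12:24708004-24708253: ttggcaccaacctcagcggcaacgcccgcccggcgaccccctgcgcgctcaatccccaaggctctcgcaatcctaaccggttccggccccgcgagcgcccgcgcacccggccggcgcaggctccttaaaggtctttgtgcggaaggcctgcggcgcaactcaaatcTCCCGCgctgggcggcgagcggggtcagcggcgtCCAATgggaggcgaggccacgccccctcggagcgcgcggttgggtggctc
The Rrm1 window held 2 CCAAT and 1 TCCCGC, and that of Rrm2 held 1 of each, with no overlap between the motifs. The base composition differed, with 46.0% G and C for Rrm1 and 72.4% for Rrm2. RefSeq promoters were found for 8 of the 10 enzymes, 13 windows in all with 46.0% to 76.0% G and C. TCCCGC was present on either strand in 10 of these 13 (76.9%), beside 16.9% of all 32851 promoter windows and 27.0% of the 14008 windows of genes in the RNA-seq table. CCAAT was present in 5 of 13 (38.5%), beside 33.8% and 35.6%. Windows of Ctps2 and of Dctd overlap each other, so that 1 site can be counted more than once. Counted by gene, TCCCGC was in at least 1 window of all 8 enzymes and CCAAT in that of 4. Of the 11121 genes of the RNA-seq table with a promoter, 30.8% and 40.5% had them. These shares were not matched for base composition. The windows with TCCCGC belonged to enzymes that rose (Rrm2), to enzymes that fell (Ctps2, Dctd) and to enzymes that were not called (Cad, Umps, Ctps, Rrm1, Dut). A match of letters is a description of the window and not of binding.

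The enzymes that make UMP lay on both sides of the control level, and none was called. Cad (chr5:31054780-31078479, plus strand), whose product carries out the opening steps including the regulated carbamoyl phosphate synthetase, was at 218, 217 and 235 CPM in control and at 167, 140 and 142 CPM in the Kit-low libraries. The libraries did not overlap, and the log2 fold change of -0.58 (SE 0.09, edgeR adjusted p = 0.00103) corresponds to 1.49-fold lower, just short of the 1.5-fold threshold. Dhodh (chr8:109591343-109608673, minus strand), the only mitochondrial step, was at 131, 110 and 125 CPM against 113, 97.4 and 111 CPM. Its groups overlapped, and the interval of the log2 difference ran from -0.42 to 0.04 (edgeR adjusted p = 0.184). Umps (chr16:33954782-33967038, minus strand), which makes UMP from orotate, was on the other side, at 366, 287 and 339 CPM in control and 478, 455 and 501 CPM in the Kit-low libraries. Every Kit-low library was above every control library, with a fold of 1.45 (log2 fold change 0.53, SE 0.10, edgeR adjusted p = 0.00202), again below the threshold on the fold. Umps shares 6.11% of its exonic bases with Gm15829 on the opposite strand.

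Of the CTP synthases, Ctps2 fell in the Kit-low libraries, and the difference of Ctps was smaller and less certain. CTP synthase makes CTP from UTP with glutamine as the nitrogen donor, and in proliferating lymphocytes the enzyme of Ctps (CTPS1) is the main form. Ctps2 (chrX:162901238-163032508, plus strand) was at 69.1, 73.0 and 74.4 CPM in control and at 37.6, 31.0 and 41.7 CPM in the Kit-low libraries. It fell 1.96-fold (log2 fold change -0.97, SE 0.13, edgeR adjusted p = 0.000308), with no overlap. Ctps (chr4:120539868-120570276, minus strand) was at 202, 184 and 179 CPM in control and at 135, 132 and 171 CPM in the Kit-low libraries. The highest Kit-low library was close to the lowest control library, and the difference of 1.29-fold had an edgeR adjusted p of 0.0271 but was below the threshold on the fold. Its edgeR adjusted p was above 0.05 in each fit that left out 1 library (0.0572 to 0.108), except without Kit-low replicate 3 (0.00325). Ctps minus Ctps2 on the log2 CPM scale was 1.38 ± 0.15 in control and 1.99 ± 0.13 in the Kit-low libraries (SD, n = 3 in each), with each Kit-low library above each control library.

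The enzymes that lead to dUMP were both lower. Dctd (chr8:48099092-48153233, plus strand) was at 32.6, 29.4 and 31.8 CPM in control and at 20.98, 17.9 and 18.2 CPM in the Kit-low libraries, and it fell 1.64-fold (log2 fold change -0.72, SE 0.14, edgeR adjusted p = 0.00267). Dut (chr2:125247190-125258608, plus strand) was at 583, 599 and 578 CPM in control and at 362, 421 and 414 CPM in the Kit-low libraries. Neither gene overlapped between the groups. The fold of Dut, 1.47 lower (log2 fold change -0.56, SE 0.08, edgeR adjusted p = 0.000492), was just inside the threshold, so that it was not called.

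**Figure D2:**
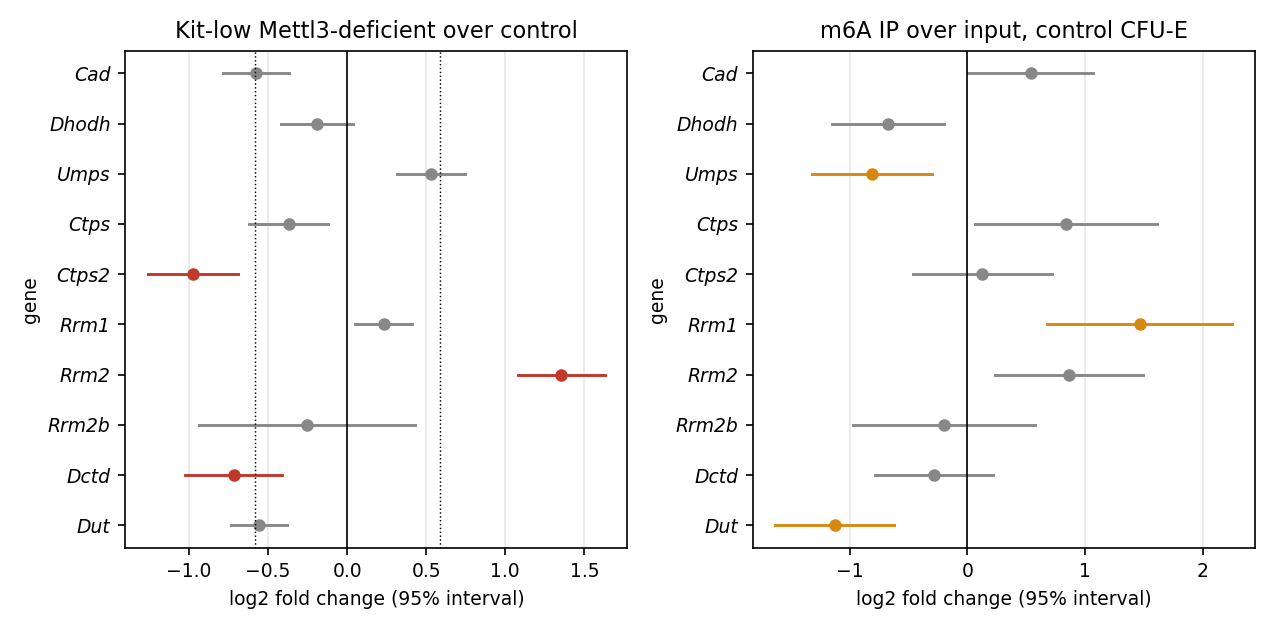
Log2 fold change with its 95% interval for each enzyme, for Kit-low Mettl3-deficient over control CFU-E cells (left, dotted lines at a fold of 1.5) and for m6A IP over input in control CFU-E cells (right). Colored points were called; on the left only Rrm2 (1.35), Ctps2 (-0.97) and Dctd (-0.72), and on the right Rrm1 (1.47), Umps (-0.81) and Dut (-1.13).

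Calls close to the threshold on the fold depended on single libraries, on the normalization or on the filter. Umps was also called higher without control replicate 1 (log2 fold change 0.61) and without Kit-low replicate 2 (0.59). Cad was called lower without control replicate 1 (-0.60), without control replicate 2 (-0.60) or without Kit-low replicate 1 (-0.67), and also with no filter on low counts (-0.59). With upper-quartile normalization both Cad (-0.61) and Dut (-0.59) were called lower. Rrm2, Ctps2 and Dctd were called under each of the 13 alternatives run, with log2 fold changes of 1.26 to 1.46, -1.06 to -0.84 and -0.80 to -0.65.

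A further 34 genes of pyrimidine and deoxynucleotide metabolism give the surroundings of these enzymes, and 31 of them were in the RNA-seq table and 30 were tested. Of the 30, 6 rose and 4 fell, beside 12.1% and 9.83% of all genes, and their median log2 fold change was 0.04. Upp1 was too low to be tested, and Upp2, Dpyd and Dpys were not among the genes listed. The deoxynucleoside kinases, which salvage deoxynucleosides by phosphorylation, separated by compartment. Tk1, the cytosolic thymidine kinase of S phase, was at 173, 186 and 176 CPM in control and at 453, 447 and 521 CPM in the Kit-low libraries, a rise of 2.66-fold (log2 fold change 1.41, SE 0.08, edgeR adjusted p = 3.17e-06). Dck, the cytosolic deoxycytidine kinase, went from 147, 156 and 179 CPM to 264, 284 and 285 CPM (log2 fold change 0.79, SE 0.09). Both cytosolic kinases were therefore higher in every Kit-low library than in any control library. Tk2, the mitochondrial thymidine kinase, was at 40.6, 39.8 and 38.2 CPM in control and at 16.2, 12.2 and 11.9 CPM in the Kit-low libraries (log2 fold change -1.55, SE 0.16, edgeR adjusted p = 5.79e-05). Dguok, the mitochondrial deoxyguanosine kinase, went from 27.3, 28.3 and 25.7 CPM to 10.4, 10.9 and 12.4 CPM (log2 fold change -1.27, SE 0.15, edgeR adjusted p = 0.000161). Both mitochondrial kinases fell with no overlap of the groups.

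Genes that degrade pyrimidine nucleotides and nucleosides changed in both directions. Nt5c3, the pyrimidine 5′-nucleotidase that red cells use to clear UMP and CMP, was at 109.8, 130.3 and 124 CPM in control and at 173, 193 and 202 CPM in the Kit-low libraries (log2 fold change 0.64, SE 0.10, edgeR adjusted p = 0.000735). Nt5c, a cytosolic deoxyribonucleotidase, rose from 32.2, 30.3 and 31.5 CPM to 49.1, 50.4 and 53.2 CPM (log2 fold change 0.70). These nucleotidases rose by 1.56-fold and 1.62-fold. Cda, which deaminates cytidine and deoxycytidine, rose from 0.43, 0.11 and 0.29 CPM to 2.60, 2.33 and 2.76 CPM (log2 fold change 3.16, SE 0.56, edgeR adjusted p = 0.00181) and remained scarce. Tymp, thymidine phosphorylase, fell from 1.87, 3.60 and 4.52 CPM to 0.57, 0.73 and 0.89 CPM (log2 fold change -2.18, SE 0.48, edgeR adjusted p = 0.00581), but 42.0% of its exonic bases are shared with Sco2 and 26.3% with Ncaph2. The other calls were weaker. Nme3 (log2 fold change 0.65) shares 87.1% of its exonic bases with Mrps34 on the same strand. The log2 fold change of Uprt was -1.15 at 1.30 to 4.92 CPM, and its call was lost when any library other than Kit-low replicate 2 was left out, with edgeR adjusted p-values of up to 0.121. Nme3 was no longer called without any 1 of the libraries other than Kit-low replicate 1, with edgeR adjusted p-values of up to 0.114, and Nt5c3 dropped below the fold threshold without control replicate 1 (log2 fold change 0.57).

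Thymidylate synthase, which uses the dUMP made by DCTD and DUT, did not share the lower values of Dctd and Dut. Its gene Tyms was at 144, 141 and 133 CPM in control and at 199.9, 214 and 181 CPM in the Kit-low libraries. The groups did not overlap, and the log2 fold change of 0.51 (SE 0.09, edgeR adjusted p = 0.00157) was below the threshold on the fold. The 2 further genes with an adjusted p under 0.05 on the higher side were Slc29a1, the nucleoside transporter ENT1 (0.53), and Nme4, a mitochondrial nucleoside diphosphate kinase (0.48), and on the lower side there was 1, Nt5c3b (-0.43).

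**Figure D3:**
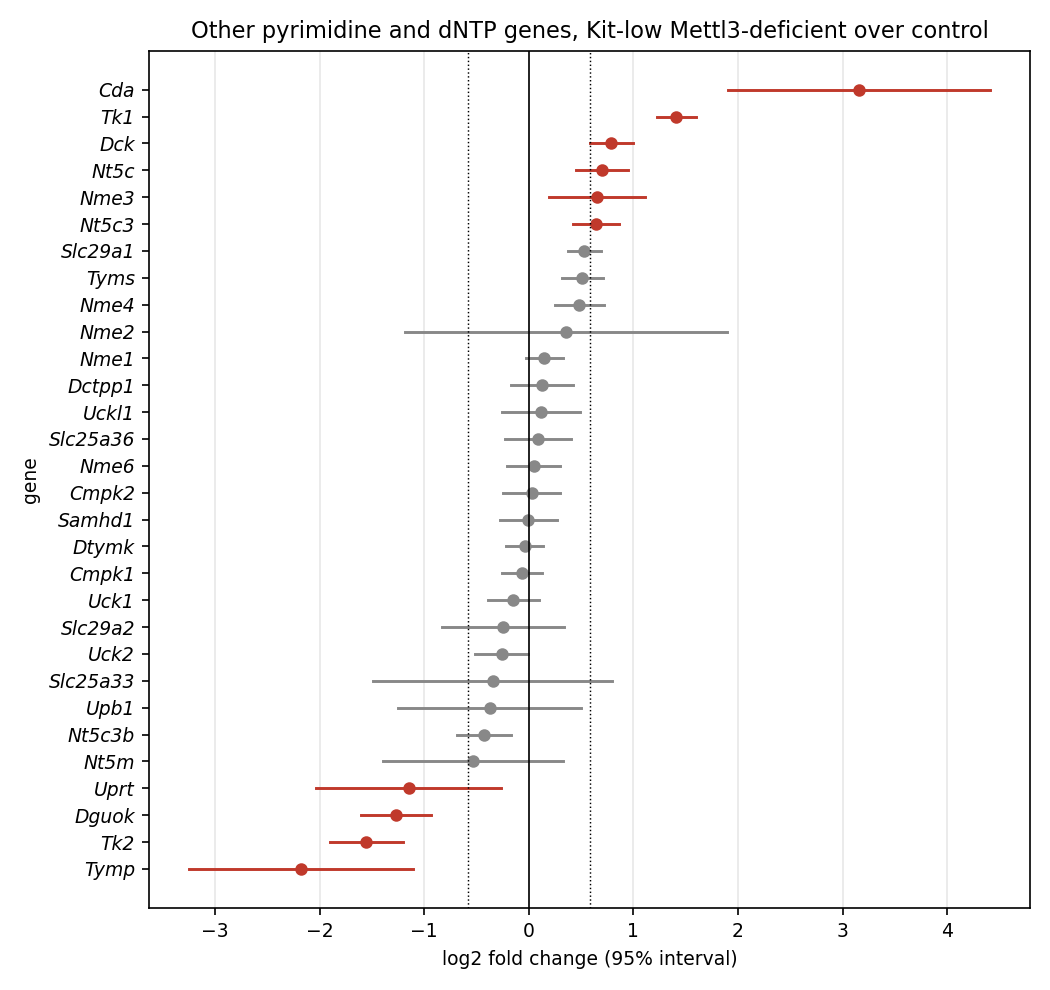
Log2 fold change of the 30 other genes of pyrimidine and deoxynucleotide metabolism that were tested, Kit-low Mettl3-deficient over control CFU-E cells, with 95% intervals and dotted lines at a fold of 1.5. Red points were called; Cda (3.16) and Tk1 (1.41) lie at the upper end, and Dguok (-1.27), Tk2 (-1.55) and Tymp (-2.18) at the lower end.

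The second comparison asked which of the transcripts are enriched by the m6A antibody. Whole RNA was precipitated without fragmentation, so that a gene has 1 value and no position along the transcript is measured. A gene was called higher or lower in IP when its edgeR adjusted p, over 11447 genes tested, was under 0.05. Of the 10 enzymes, Rrm1 was called higher in IP, beside 7.90% of all genes, and Umps and Dut were called lower, beside 7.86% of all genes, which makes 15.8% of all genes in either direction. The 2 IP libraries lay outside the 2 input libraries for 8 of the 10, 4 on each side, where 60.9% of all genes did, 32.2% higher and 28.7% lower. The median log2 fold change was -0.04 over the enzymes and 0.06 over all genes. With 2 libraries a side these calls rest on few values, and all 3 were lost without input replicate 1.

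Rrm1 was at 48.1 and 41.1 CPM in input and at 174 and 72.6 CPM in IP. Both IP libraries were above both input libraries, but they differed from each other by more than the lower one differed from input. The fitted enrichment was 2.76-fold (log2 fold change 1.47, SE 0.35, edgeR adjusted p = 0.0205). Without IP replicate 1 the log2 fold change was 0.68 with an adjusted p of 0.156, and without input replicate 1 it was 1.56 with an adjusted p of 0.0750. Rrm2 showed the same order, with 185 and 132 CPM in input and 360.5 and 215 CPM in IP. Its log2 fold change of 0.86 (SE 0.28, 95% interval 0.23 to 1.49) missed the threshold with an edgeR adjusted p of 0.0645, and over the 11 alternatives the adjusted p ran from 0.000768 to 0.369. Under DESeq2 it was called higher (log2 fold change 0.82, adjusted p = 0.0330), as it was without IP replicate 2 (1.18). Rrm2b, at 4.01 and 3.20 CPM in input and 3.04 and 3.27 CPM in IP, overlapped between the groups (log2 fold change -0.20, 95% interval -0.98 to 0.58).

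The GGACT pentamers of the Rrm1 and Rrm2 transcripts are shown because m6A is mostly placed at the A of such sequences and Rrm1 was the enzyme enriched in IP. Each line gives the pentamer in capitals with 8 bases on either side, 5′ to 3′ along the mRNA, in the longest coding transcript annotated on GRCm38, with its place. Rrm1 held 7 and Rrm2 held 4, all on the plus strand. Sites 4 and 5 of Rrm1 have windows that cross an exon junction, so that the coordinates given span an intron.
Rrm1 site 1, 5′ UTR, exon 1, chr7:102441704-102441724: cggccaagGGACTcgtgtgct
Rrm1 site 2, coding sequence, exon 2, chr7:102443041-102443061: tctgttatGGACTcaacatgg
Rrm1 site 3, coding sequence, exon 2, chr7:102443052-102443072: ctcaacatGGACTttgttgat
Rrm1 site 4, coding sequence, exon 8, chr7:102454628-102456481: catcgctgGGACTaatggcaa
Rrm1 site 5, coding sequence, exon 10, chr7:102457305-102457571: actaaccaGGACTggtcattg
Rrm1 site 6, coding sequence, exon 15, chr7:102461643-102461663: gacctgtgGGACTggaagcct
Rrm1 site 7, 3′ UTR, exon 19, chr7:102469501-102469521: gaattgctGGACTatataatt
Rrm2 site 1, coding sequence, exon 2, chr12:24708611-24708631: atcttccaGGACTccgccgag
Rrm2 site 2, coding sequence, exon 3, chr12:24709064-24709084: ctccttttGGACTgccgagga
Rrm2 site 3, 3′ UTR, exon 10, chr12:24713577-24713597: aagatgtcGGACTgcttcctg
Rrm2 site 4, 3′ UTR, exon 10, chr12:24713893-24713913: cacccgtgGGACTcttacaaa
Of Rrm1's pentamers 5 of 7 lay in the coding sequence, and of Rrm2's 2 of 4, the others of Rrm2 being in the 3′ UTR. The density was 1.75 per kilobase for Rrm1 and 1.82 for Rrm2, beside a median of 1.01 over all 15998 annotated transcripts, of which 89.3% held at least 1. Whether any of these sites is methylated is not measured by whole-transcript IP.

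The lower side of IP over input held Dut and Umps, and of the other UMP enzymes Dhodh and Cad lay on opposite sides. Dut was at 997 and 1005 CPM in input and at 411 and 504 CPM in IP. It was 2.19-fold lower in IP (log2 fold change -1.13, SE 0.23, edgeR adjusted p = 0.00848), with IP replicates well below both inputs, and lost the call without input replicate 1 (adjusted p = 0.0964). Umps was at 653 and 769 CPM in input and at 359.97 and 449 CPM in IP (log2 fold change -0.81, SE 0.23, edgeR adjusted p = 0.0384). This call was lost without input replicate 1, without input replicate 2 or without IP replicate 1, with edgeR adjusted p-values of up to 0.275, and with upper-quartile normalization (adjusted p = 0.0887). Dhodh, at 199 and 231 CPM in input and 125 and 144 CPM in IP, was also on the lower side and missed the threshold (log2 fold change -0.67, edgeR adjusted p = 0.0579). DESeq2 called it lower (-0.71, adjusted p = 0.0261). Cad lay on the other side, at 23.5 and 27.3 CPM in input and 38.9 and 34.8 CPM in IP, with a log2 fold change of 0.54 and an edgeR adjusted p of 0.152.

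For the CTP synthases, Ctps was at 29.2 and 14.6 CPM in input and 47.7 and 30.4 CPM in IP, and its interval was wide (log2 fold change 0.83, 95% interval 0.06 to 1.61, edgeR adjusted p = 0.130). Ctps2 was at 46.0 and 30.1 CPM in input and at 45.1 and 37.99 CPM in IP, which overlapped (0.13, interval -0.47 to 0.72). Dctd, at 80.4 and 62.8 CPM in input and 59.1 and 58.5 CPM in IP, did not pass the test (-0.28, interval -0.79 to 0.22). In the main edgeR fit none of the 3 enzymes called in the RNA-seq comparison was called in IP over input. For Rrm2 this held in only 5 of the 11 alternatives, and in the others it was called higher in IP.

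**Figure D4:**
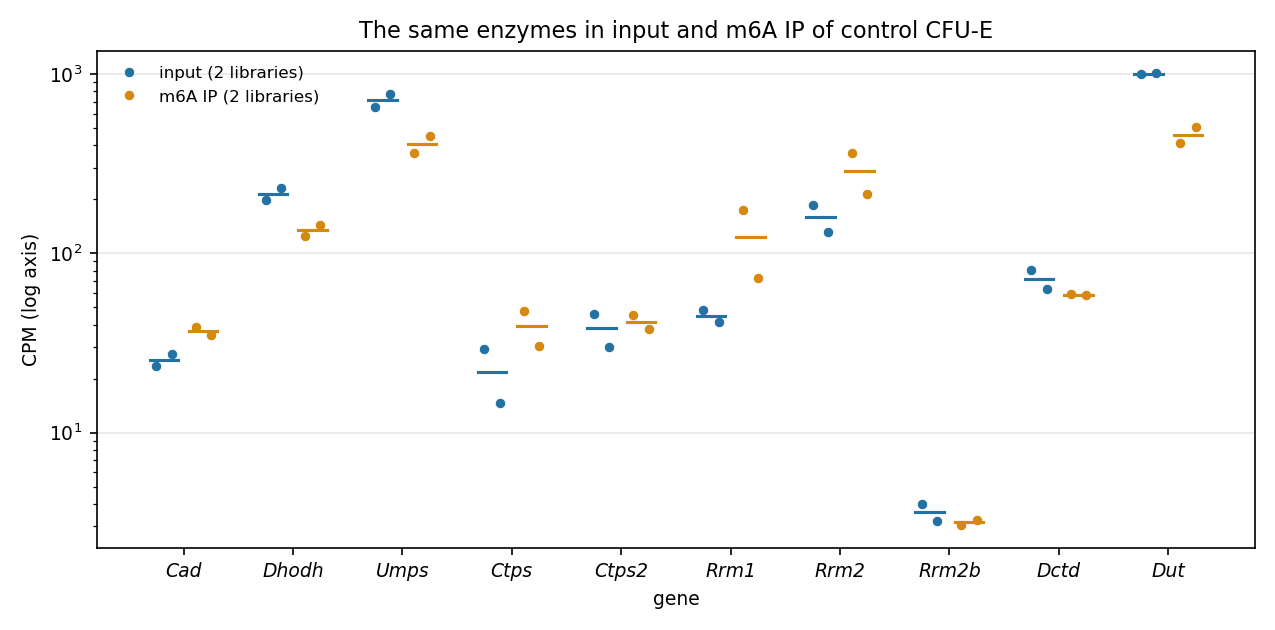
CPM (log axis) of the 10 enzymes in the 2 input libraries (blue) and the 2 m6A IP libraries (orange) of control CFU-E cells, with the group mean as a bar. Rrm1 in IP is spread between 72.6 and 174 CPM, and Dut in IP lies at 411 and 504 CPM below both inputs.

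Of the 30 other genes of the pathway tested in IP over input, 1 was called higher and 3 lower, beside 7.90% and 7.86% of all genes. Both IP libraries lay above both inputs for 2 of the 30 (32.2% of all genes) and below them for 11 (28.7% of all genes). The gene called higher was Slc25a36, a mitochondrial pyrimidine nucleotide carrier, at 32.8 and 64.2 CPM in input and 134 and 136 CPM in IP (log2 fold change 1.48, SE 0.30, edgeR adjusted p = 0.00920). The 3 called lower were Slc25a33, Uck2 and Nt5c3b. Slc25a33, a further carrier of that family, was at 32.8 and 31.1 CPM in input and at 2.71 and 3.22 CPM in IP (log2 fold change -3.44, SE 0.28, edgeR adjusted p = 2.72e-05). So the pair of mitochondrial carriers lay at opposite ends of the list. In the separately normalized RNA-seq table Slc25a33 was at 1.43 to 3.55 CPM in control cells, and 14.9% of its exonic bases are shared with Gm13068 on the opposite strand. Uck2, a uridine-cytidine kinase, and Nt5c3b, a nucleotidase, had log2 fold changes of -0.80 and -0.77. Both lost the call without either input library or without IP replicate 1, with edgeR adjusted p-values of up to 0.208, and Slc25a36 lost it without input replicate 1 (adjusted p = 0.0989).

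The order of the enzymes in control CFU-E cells differed between the RNA-seq and the input libraries, which were made by different protocols and normalized separately, so that only the order within each is read. Dut was the most abundant in input, at 745 ± 46.7 TPM (SD, n = 2), followed by Umps at 295 ± 13.9, Dhodh at 152 ± 5.61 and Rrm2 at 106 ± 32.2 TPM. Rrm1, the most abundant of the 10 by RNA-seq, stood 7th in input at 16.3 ± 2.89 TPM, where it overlapped with Ctps2 (16.6 ± 5.99 TPM) and Ctps (11.9 ± 6.37 TPM). In RNA-seq every control library had more Rrm1 than Rrm2 per length, and in input both libraries had less. Cad stood 9th in input, at 5.15 ± 0.20 TPM, and 7th in RNA-seq. The order in input depended in part on the division by length. By mean CPM in input, Rrm1 (44.6) lay above Ctps2 (38.1) and Cad (25.4) above Ctps (21.9), with overlapping libraries in both pairs. Spearman's rank correlation between the levels was 0.48 over the 10 enzymes, which share their libraries within each table. The 7137-base transcript of Cad is the longest of the 10 and the 1950-base transcript of Dut the shortest. Both protocols started reverse transcription with oligo-dT primers. The final input libraries were amplified from cDNA fragments with a primer at the 3′ end. The part of length and protocol in this difference of order was not tested.

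**Figure D5:**
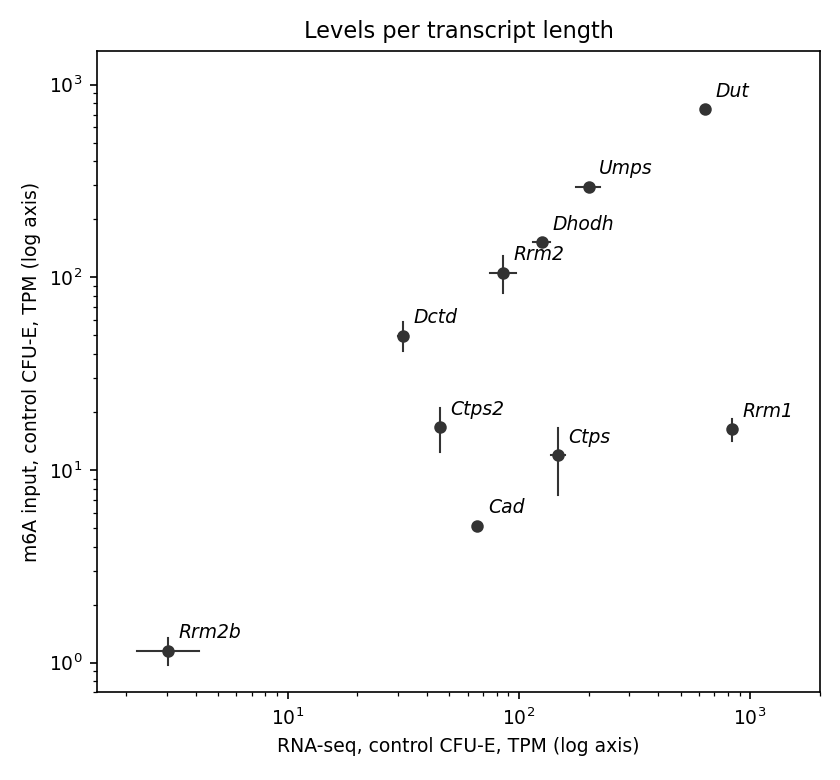
TPM of the 10 enzymes in control CFU-E cells by RNA-seq (horizontal, 3 libraries) and in m6A input (vertical, 2 libraries), both on log axes and normalized separately, with points at the mean and lines from the lowest to the highest library. Rrm1 is the farthest to the right (1st in RNA-seq) but only 7th from the top in input, while Rrm2b is the lowest on both axes.

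Properties of the transcripts that the choice of the enzymes did not use were set beside the IP values. Umps and Dctd held no GGACT in their longest coding transcript, and Umps was called lower in IP. Dhodh had the highest density, 3.43 per kilobase with 7 pentamers, and lay on the lower side of IP over input, while Cad with 8 had 1.12 per kilobase and lay on the higher side. Dut held 2, both in the 3′ UTR. Over the 10 enzymes Spearman's rank correlation of the IP log2 fold change was 0.54 with the density of GGACT, 0.45 with transcript length, -0.38 with G and C content and -0.58 with the level in input. The level in input is also the denominator of the IP log2 fold change, so that the last of these values is not independent of it. These are descriptions over 10 transcripts of the same 4 libraries. The log2 fold changes of the RNA-seq comparison and of IP over input had a rank correlation of 0.19 over the 10 enzymes. Side by side, Rrm2 had 1.35 and 0.86, Ctps2 had -0.97 and 0.13, Dctd had -0.72 and -0.28, Dut had -0.56 and -1.13, Umps had 0.53 and -0.81, and Rrm1 had 0.23 and 1.47 in the 2 comparisons.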

How the data were processed

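Reads were filtered with fastp 0.23.4, quantified against mm10 transcripts with kallisto 0.48.0 and merged to genes with tximport by the authors, who deposited estimated counts per gene, not normalized, with 1 column per library. The submitters' notes also name GRCm39. Smart-seq2 was used for the RNA-seq libraries, and for the IP and input libraries SLIM-seq with a molecular identifier. Use of strand or identifiers in counting is not given in the sources used here. Precision rests on replicate spread, to which counting error adds for scarce genes such as Cda, with 9, 2 and 5 counts in the control libraries. Of 16 samples 10 had values, and the 6 ProE samples were not analysed here.

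The deposited estimated counts were whole numbers and were analysed with edgeR 4.0.16 in R 4.3.3 (TMM, filterByExpr, glmQLFit, glmQLFTest), 1 fit per table with group as the only term. Ratios within a library used log2 CPM with a prior count of 2. DESeq2 1.42.0 was an alternative, beside other normalizations, filters on low counts and at 1 TPM, a replicate block and leaving out each library. On simulated data with 200 genes changed 4-fold, edgeR recovered 196 of 200 with 13 false calls among 11718 genes in the RNA-seq design, and 194 with 9 among 11195 in the m6A design. The changed genes were drawn above a floor on the mean count, so that recovery of smaller changes or of scarce genes was not tested. Coordinates and transcripts come from GENCODE M21 (GRCm38, the build called mm10) and promoters from RefSeq GRCm38.p6, with 99.9% of the genes matched by symbol. Figures were drawn with matplotlib in Python. All 10 enzymes are described whatever their values, with every other pathway gene that was called, Mettl3, Kit and overlapping genes. One pathway gene and a marker gene are not reported here and were left out of the lists. The enzymes, the further pathway genes and the marker lists were chosen with earlier results of these data known.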

Additional observations from a re-analysis of the deposited data

How the results depend on the processing

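In the RNA-seq comparison 4 enzymes were lower with upper-quartile normalization (Cad and Dut added to Ctps2 and Dctd), and without a threshold on the fold 2 were higher and 5 lower. When each library was left out in turn, the count of higher enzymes ran from 1 to 2 and that of lower ones from 2 to 3. With no filter on low counts 3 were lower, Cad included. Among the other pathway genes 9 were higher without the fold threshold. In IP over input, 2 enzymes were higher with DESeq2, library size only, upper-quartile normalization or the filter at 1 TPM, since Rrm2 joined Rrm1, and 1 was lower with upper-quartile normalization. Leaving out each library gave 0 to 2 enzymes higher and 0 to 2 lower. Of the other pathway genes, 6 were lower with DESeq2, 1 with library size only and 1 with upper-quartile normalization, and 2 were higher with upper-quartile normalization or the filter at 1 TPM. Leaving out a library gave 0 to 2 higher and 1 to 4 lower. The cause of these changes was not tested, other than that leaving out a library leaves fewer samples.

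The replicate numbers are shared between groups, but neither labels nor methods say that they mark shared mice. In the RNA-seq table deviations of same-numbered libraries correlated at 0.03, -0.02 and -0.07, and in the m6A table at 0.21 with 2 pairs. With the replicate number as a block, 4 enzymes were called higher in IP (Cad, Ctps, Rrm1 and Rrm2) and 3 lower (Dhodh, Umps and Dut), and of the other genes 2 were higher and 9 lower. In the RNA-seq the block changed no call of the 10 enzymes, and Nme3 was no longer called (edgeR adjusted p = 0.0584).

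Directions turned for Rrm2b and Mettl3 in the RNA-seq and for Ctps2 in IP over input, none of which passed the test. Over the fits that each lacked 1 library, Rrm2b in the RNA-seq had log2 fold changes from -0.43 to 0.026 (without control replicate 2), and Mettl3 from -0.12 to 0.0027 (without Kit-low replicate 3). Ctps2 in IP over input ran from -0.15 (without input replicate 2) to 0.44 and was at -0.022 without IP replicate 1. Library size only moved the median log2 fold change of all genes in IP over input from 0.06 to 0.21, and upper-quartile normalization to 0.18, so that IP values are relative to that shift.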
